A study of Homo sapiens with 15 samples.

Results

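The 10 transcription factors described here build the heart muscle programme and were followed through cardiac differentiation of human embryonic stem cells: NKX2-5, GATA4, GATA5, GATA6, TBX5, TBX20, MEF2A, MEF2C, MYOCD and SRF. They were taken by symbol from a table of 60605 genes, and all 10 were among the 21206 genes that had an FPKM of 1 or more in some library. FPKM is the read count scaled by gene length and by the library's total.

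The cells were of the established line H1 (genotype WT), induced to mesendoderm with CHIR99021, an activator of WNT signalling. Libraries of days 0, 1 and 2 were shared by all arms. The 3 arms then had 1 library each on days 3, 5, 7 and 10: NP-ctrl, left in place and given no inducer; NP-IWP2, left in place and given IWP2, an inhibitor of WNT secretion; and passaged, dissociated and replated on day 2 without IWP2. The paper reports that passaged cells of this series were split on replating, and that its later differentiation experiments received a ROCK inhibitor. The parts of the split and of the inhibitor in the arm differences were not tested. With 15 libraries of 1 series of cultures of 1 line, no arm had a replicate on any day, and p-values measure the spread of an arm difference between days, not between differentiations.

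NKX2-5 is a homeodomain factor that marks cardiac progenitors, the GATA factors are zinc finger proteins used by both heart and endoderm, and TBX5 and TBX20 are T-box factors of the heart. MEF2A, MEF2C and SRF are MADS-box proteins that bind muscle gene promoters, and MYOCD (myocardin) is a coactivator that works through SRF. In the embryo these proteins bind shared target genes and act on each other's expression.

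Total counts ranged from 13254723 to 20250115 per library (median 15269132), and intervals below are exact 95% intervals for counting error only. The mitochondrial share of counts was lowest in passaged cells on day 3 (1.53%) and highest in them on day 10 (10.3%). Against NP-ctrl the passaged day 10 library held less of the endoderm and hepatic marker list (summed FPKM of 10 genes 20.8, compared with 4018 for NP-ctrl and 1186 for NP-IWP2) and more of the cardiomyocyte list (8 genes, 3263 against 417 and 1313). The defining endoderm marker HNF4A was at most 0.02 in passaged libraries from day 3 on and reached 4.22 in NP-ctrl, and the cells labelled as embryonic stem cells had the pluripotency factor POU5F1 at 0.03 or less in all arms on day 10. SOX2, another gene of the 6 in the pluripotent list and also one of neural cells, was at 0.06, 0.08 and 4.89 in NP-ctrl, NP-IWP2 and passaged on day 10 and was called higher in passaged than in either arm, and the list summed to 22.6, 21.2 and 55.5.

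Promoters are shown for the factor without an onset, SRF, and for the T-box pair that parted between the arms. Each is the 250 bases before the annotated gene start (RefSeq, GRCh38.p14), written 5′ to 3′ on the gene's strand, and capitals mark matches to the motifs searched. The SRF window (chr6:43171019-43171268, plus strand) held a pair of CArG boxes, the sequence SRF itself binds, which began 30 and 10 bases before the start. The TBX5 window (chr12:114408443-114408692, minus strand) held 1 MEF2 site, beginning 31 bases before the start, and the TBX20 window (chr7:35254101-35254350, minus strand) held no match.
SRF: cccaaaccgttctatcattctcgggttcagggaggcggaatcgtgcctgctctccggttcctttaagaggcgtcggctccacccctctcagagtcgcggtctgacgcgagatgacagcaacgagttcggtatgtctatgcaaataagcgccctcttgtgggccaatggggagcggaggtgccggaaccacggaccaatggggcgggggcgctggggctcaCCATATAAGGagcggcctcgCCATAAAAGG
TBX5: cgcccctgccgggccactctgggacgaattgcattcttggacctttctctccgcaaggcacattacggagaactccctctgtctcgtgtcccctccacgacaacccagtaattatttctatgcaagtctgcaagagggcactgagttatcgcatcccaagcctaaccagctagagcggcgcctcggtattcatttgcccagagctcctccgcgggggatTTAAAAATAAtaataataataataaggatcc
TBX20: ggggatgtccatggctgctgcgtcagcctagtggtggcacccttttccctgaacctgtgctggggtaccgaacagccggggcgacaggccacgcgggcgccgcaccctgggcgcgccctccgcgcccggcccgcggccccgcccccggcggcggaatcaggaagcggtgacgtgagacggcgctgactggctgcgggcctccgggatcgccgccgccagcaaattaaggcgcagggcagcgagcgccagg

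The motifs were searched on both strands, and a match describes the letters only. Of 34943 promoter windows of this length, 1.16% held a CArG box and 2.81% a MEF2 site, motifs of like composition that can overlap. The GATA motif AGATAA was in 9.19%, the NKX2-5 motif AAGTG in 37.6% and the T-box motif GGTGTGA in 2.76%. Windows were given for 6 members. TBX5 and SRF each had a further window away from the annotated gene start, which held none of the 5 motifs. GATA6 and MEF2A held none of the 5 motifs in the window at the gene start, although a second MEF2A window held a MEF2 site. MEF2C, with 7 windows, held AAGTG in 6 of them and a MEF2 site in 1. NKX2-5, GATA4, GATA5 and MYOCD had no window.

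The factors came on in sequence before the arms divided. Onset was the first day on which log2(FPKM + 1) stood at least 1 above day 0. GATA4 (ENSG00000136574, chromosome 8, 11676959 to 11760002, GRCh38) went from an FPKM of 0.11 on day 0 to 24.22 on day 1 and 40.68 on day 2. GATA6 (ENSG00000141448, chromosome 18, 22169589 to 22202528) went from 0.00 to 11.65 and 50.62. The 2 GATA factors were thus the first of the 10 to reach onset, and GATA4 on day 1 was 228-fold above day 0 (interval 116 to 529).

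On day 2 GATA5 (ENSG00000130700, chromosome 20, 62463497 to 62475995) reached 4.88 from 1.93 on day 0, and TBX20 (ENSG00000164532, chromosome 7, 35202430 to 35254100) reached 1.59 from 0.03. None of the other members had reached onset. NKX2-5 stood at 0.14, 0.26 and 0.24 on days 0, 1 and 2, MYOCD at 0.19, 0.07 and 0.04, and MEF2C at 0.29, 0.06 and 0.05. MYOCD and MEF2C were thus below day 0 on day 1, at ratios of 0.349 (0.157 to 0.72) and 0.226 (0.116 to 0.411).

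**Figure D1:**
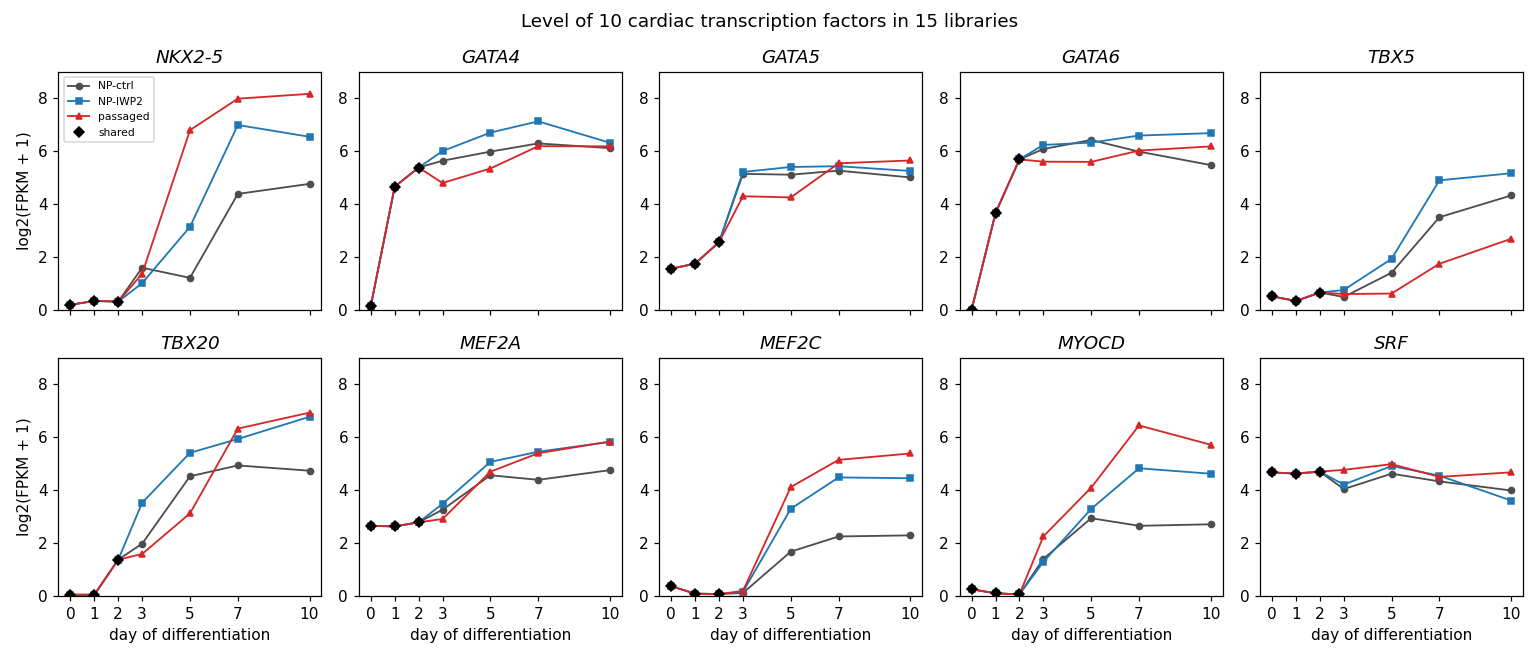
Level of each factor, as log2(FPKM + 1), against day of differentiation, 1 point a library and 1 line an arm, with black diamonds for the shared libraries of days 0 to 2. GATA4 and GATA6 are first up, on day 1, in the shared libraries. NKX2-5 and MEF2C are highest in passaged cells and lowest in NP-ctrl from day 5, and MYOCD is highest in passaged cells from day 3. TBX5 is lowest in passaged cells from day 5, and SRF has no onset.

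After the arms divided, the order was nearly the same in each. MYOCD began on day 3 in every arm and MEF2A and MEF2C on day 5 in every arm. NKX2-5 began on day 3 in NP-ctrl and passaged and on day 5 in NP-IWP2, and TBX5 on day 7 in NP-ctrl and passaged and on day 5 in NP-IWP2. For TBX5 the criterion hid an earlier rise in NP-ctrl, to an FPKM of 1.64 on day 5. From day 3 to day 5 it rose 4.08-fold in NP-ctrl (2.69 to 6.36) and 4.1-fold in NP-IWP2 (2.9 to 5.9). In passaged cells that ratio was 1.04 (0.626 to 1.74). SRF had no onset in any arm. In each arm 9 of the 10 members had such an onset, where 33.5% of all genes did in the NP-ctrl series, 34.3% in the NP-IWP2 series and 30.7% in the passaged series.

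The day 3 onset of NKX2-5 rested on few reads. Its FPKM was 2.01 in NP-ctrl (67 counts), 1.01 in NP-IWP2 (28 counts) and 1.57 in passaged (44 counts), and the passaged to NP-ctrl ratio of 0.78 had an interval that held 1 (0.521 to 1.16). With a rise of at least 2 as the criterion NKX2-5 began on day 5 in passaged and NP-IWP2 and on day 7 in NP-ctrl. Of the other 9 factors, 4 began before NKX2-5 in NP-ctrl and in passaged (GATA4, GATA6, GATA5 and TBX20), and 5 in NP-IWP2, where MYOCD also did.

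The time to 50% of an arm's own highest FPKM gave another order. In NP-ctrl 8 of the other 9 factors were at that level before NKX2-5, in NP-IWP2 5 were and in passaged 3 were. Each count includes SRF, which was at that level from day 0 and had no onset. NKX2-5 reached it on day 7 in all 3 arms, whereas its highest level differed between them, 26.15 in NP-ctrl, 126.08 with IWP2 and 286.55 in passaged cells.

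NKX2-5 (ENSG00000183072, chromosome 5, 173232109 to 173235311) is the progenitor factor against which the others were set. On days 3, 5, 7 and 10 its FPKM was 2.01, 1.31, 19.86 and 26.15 in NP-ctrl, 1.01, 7.80, 126.08 and 92.30 with IWP2 and 1.57, 110.04, 252.45 and 286.55 in passaged cells. On day 3 NP-IWP2 was below NP-ctrl beyond counting error and passaged differed from neither, and from day 5 passaged was highest and NP-ctrl lowest on every day. In bulk RNA, more cells that express a gene cannot be told apart from more RNA per cell.

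The separation of NKX2-5 was largest on day 5, when passaged was 84.1-fold above NP-ctrl (interval 62.1 to 117) and 14.1-fold above NP-IWP2 (12.3 to 16.2). The ratio to NP-ctrl was 12.7 on day 7 (11.6 to 13.9) and its interval on day 10 was 10.2 to 11.8. Over days 3 to 10 the log2 difference between passaged and NP-ctrl was 3.51 (SE 0.91) and did not pass (edgeR quasi-likelihood, Benjamini-Hochberg adjusted p = 0.0556), with 3 of 4 days higher. Without day 3 it was 4.62 and called (edgeR adjusted p = 0.00109). It was 2.37 without day 5 (edgeR adjusted p = 0.218), 3.33 without day 7 (0.291) and 3.46 without day 10 (0.22). DESeq2 called it (adjusted p = 0.0044), as did edgeR without the filter on low values (adjusted p = 2.74e-11). Neither limma on log2(FPKM + 1) (adjusted p = 0.0933) nor edgeR fitted to the 2 arms alone (adjusted p = 0.225) did.

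Across the 10 factors, edgeR called 2 between passaged and NP-ctrl, MEF2C and MYOCD, where 4.40% of all genes tested were called. Between NP-IWP2 and NP-ctrl it called none of the 10, where 0.0189% of all genes were called. DESeq2 called 1 and limma called 0 there. Between passaged and NP-IWP2 edgeR called TBX5 alone, as lower, where 1.33% of all genes were called. At an unadjusted p under 0.05 edgeR had 5 of the 10 between NP-IWP2 and NP-ctrl, and 1009 of all 21206 genes. These counts were 5 and 4062 between passaged and NP-ctrl, and 6 and 2726 between passaged and NP-IWP2. The comparisons share libraries and are not independent of each other. The median log2 difference of the 10 factors was 0.55, 0.83 and -0.21 in these comparisons, against 0.00, -0.01 and 0.02 over all genes.

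MEF2C (ENSG00000081189, chromosome 5, 88717117 to 88904257), a factor of the early heart and of skeletal muscle, followed NKX2-5 most closely by Pearson's r over the pooled libraries, though not by rank or within each arm. Its FPKM on days 3, 5, 7 and 10 was 0.08, 2.19, 3.75 and 3.89 in NP-ctrl, 0.11, 8.82, 21.35 and 20.87 with IWP2 and 0.14, 16.35, 34.40 and 40.88 in passaged cells. The arms did not differ on day 3 beyond counting error, and from day 5 passaged was highest and NP-ctrl lowest. On day 10 passaged was 10.5-fold above NP-ctrl (9.67 to 11.4) and 1.96-fold above NP-IWP2 (1.88 to 2.04).

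The log2 difference of MEF2C between passaged and NP-ctrl was 2.90 (SE 0.35, edgeR adjusted p = 0.0015), higher on 4 of 4 days. It kept its call without any 1 day and in DESeq2, and lost it in limma on log2(FPKM + 1) (adjusted p = 0.0726) and when edgeR was fitted to the 2 arms alone (adjusted p = 0.0563). Between NP-IWP2 and NP-ctrl the difference was 2.04 (SE 0.34, edgeR adjusted p = 0.17).

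MYOCD (ENSG00000141052, chromosome 17, 12665890 to 12768949) had the highest passaged level on day 7. Its FPKM on days 3, 5, 7 and 10 was 1.64, 6.67, 5.28 and 5.54 in NP-ctrl, 1.44, 8.78, 27.40 and 23.62 with IWP2 and 3.76, 16.09, 86.30 and 51.63 in passaged cells. Passaged was above both other arms on every day, including day 3, when it was 2.29-fold above NP-ctrl (1.95 to 2.69) and NKX2-5 was not. On day 7 it was 16.3-fold above NP-ctrl (15.1 to 17.8), and from day 7 to day 10 it changed by a ratio of 0.598 (0.581 to 0.616) within the passaged arm, while NKX2-5 and MEF2C there changed by 1.14 and 1.19.

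The log2 difference of MYOCD between passaged and NP-ctrl was 2.36 (SE 0.49, edgeR adjusted p = 0.0233), higher on 4 of 4 days. It was no longer called without day 5 (2.77, edgeR adjusted p = 0.0677), day 7 (1.80, 0.138) or day 10 (2.02, 0.111), in limma (adjusted p = 0.0734) or with the 2 arms alone (edgeR adjusted p = 0.154). The call was kept in DESeq2 (adjusted p = 1.47e-05).

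MEF2A (ENSG00000068305, chromosome 15, 99565417 to 99716466), the more widely expressed MEF2 gene, was present from day 0 at 5.28. Its FPKM on days 3, 5, 7 and 10 was 8.57, 22.65, 19.96 and 26.06 in NP-ctrl, 10.20, 32.57, 42.82 and 55.76 with IWP2 and 6.51, 24.97, 41.11 and 56.28 in passaged cells. Passaged and NP-IWP2 differed little on days 7 and 10, with ratios of 0.96 (0.921 to 1.00) and 1.01 (0.974 to 1.05) whose sign turned with the scaling, and both were above NP-ctrl, by 2.16-fold for passaged on day 10 (2.06 to 2.27). Its arm differences of 0.52 (passaged against NP-ctrl) and 0.67 (NP-IWP2 against NP-ctrl) were not called (edgeR adjusted p = 0.319 and 0.973).

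The share of the MEF2 pair held by MEF2C differed between the arms. On day 10 MEF2C made up 12.99% of the summed FPKM of MEF2A and MEF2C in NP-ctrl, 27.2% with IWP2 and 42.1% in passaged cells. On day 3 it was at most 2.11% in any arm.

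TBX20, a T-box factor of the developing myocardium, changed sides between the arms. Its FPKM on days 3, 5, 7 and 10 was 2.93, 22.03, 29.59 and 25.64 in NP-ctrl, 10.50, 41.57, 60.19 and 108.56 with IWP2 and 2.00, 7.70, 79.33 and 121.15 in passaged cells. Passaged was lowest on days 3 and 5 and highest on days 7 and 10. On day 5 it was 5.40-fold below NP-IWP2 (4.65 to 6.29) at a time when NKX2-5 was 14.1-fold above, and by day 10 it was 1.12-fold above (1.06 to 1.17), a direction that turned in TPM, where the difference was -0.07 on log2(TPM + 1). Averaged over the 4 days its difference from NP-ctrl was 0.72 (SE 0.58, edgeR adjusted p = 0.572).

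TBX5 (ENSG00000089225, chromosome 12, 114353911 to 114408442), a factor of the atria and left ventricle, ordered the arms otherwise than NKX2-5. Its FPKM on days 3, 5, 7 and 10 was 0.40, 1.64, 10.32 and 19.01 in NP-ctrl, 0.68, 2.80, 28.79 and 34.86 with IWP2 and 0.51, 0.53, 2.34 and 5.43 in passaged cells. NP-IWP2 was highest and passaged lowest on days 5, 7 and 10, and on day 3 passaged did not differ from either arm beyond counting error. On day 7 passaged was 12.3-fold below NP-IWP2 (10.4 to 14.6) and 4.41-fold below NP-ctrl (3.69 to 5.29), and on day 10 it was 6.42-fold (5.75 to 7.19) and 3.50-fold (3.12 to 3.95) below.

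TBX5 was 2.33 lower on the log2 scale in passaged than in NP-IWP2, with a fitted difference of -2.33 (SE 0.39, edgeR adjusted p = 0.0205) and 4 of 4 days lower. It was no longer called without day 5 (-2.30, edgeR adjusted p = 0.147), day 7 (-1.83, 0.181) or day 10 (-2.22, 0.0927), in limma (-1.78, adjusted p = 0.192) or with the 2 arms alone (edgeR adjusted p = 0.0573). Against NP-ctrl the difference was -1.32 (SE 0.39, edgeR adjusted p = 0.0811), which was -1.76 and called without day 3 (edgeR adjusted p = 0.00157). It was -1.21, -1.05 and -1.16 without day 5, 7 or 10 (edgeR adjusted p = 0.287, 0.387 and 0.358). DESeq2 called it (adjusted p = 0.0209) and limma on log2(FPKM + 1) did not (adjusted p = 0.228).

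TBX5-AS1, an antisense transcript that overlaps TBX5 on the other strand, was lower in passaged as well, by -2.72 against NP-IWP2 (edgeR adjusted p = 0.0409) and by -2.19 against NP-ctrl (edgeR adjusted p = 0.0475). It held 4 to 206 counts a library. Whether counting used the strand of the reads is not given in the sources used here, so reads of the pair cannot be told apart.

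Some markers of epicardium and mesothelium, tissues in which TBX5 is also expressed, were low where it was low. TBX18 was at 7.13 and 40.60 for NP-ctrl and 21.83 and 65.14 for NP-IWP2 on days 7 and 10, and at 0.07 and 0.08 in passaged, and WT1 was at 10.02, 3.53 and 0.01 in NP-ctrl, NP-IWP2 and passaged on day 10. Of the 7 listed genes 4 were called lower in passaged than in NP-ctrl (WT1, TBX18, TCF21 and BNC1) and none higher, where 4.40% of all genes tested were called. ALDH1A2, a retinoic acid synthesis enzyme, and LRRN4 stood higher there without a call, by 2.14 (SE 0.54, edgeR adjusted p = 0.0512) and 0.92. Against NP-IWP2, 2 were called lower (WT1 and TBX18) and 1 higher, ALDH1A2, by 2.62 (SE 0.54, edgeR adjusted p = 0.042), and LRRN4 stood at 1.08 without a call. The summed FPKM of the 7 genes was highest in passaged on days 3 and 5 (31.3 and 53.9) and lowest there on day 10 (40.4, compared with 178 for NP-ctrl and 115 for NP-IWP2). Their part in the TBX5 difference was not tested.

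The T-box pair was therefore made up differently in the arms. On day 10 TBX5 held 42.6% of the summed FPKM of TBX5 and TBX20 in NP-ctrl, 24.3% with IWP2 and 4.29% in passaged cells.

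**Figure D2:**
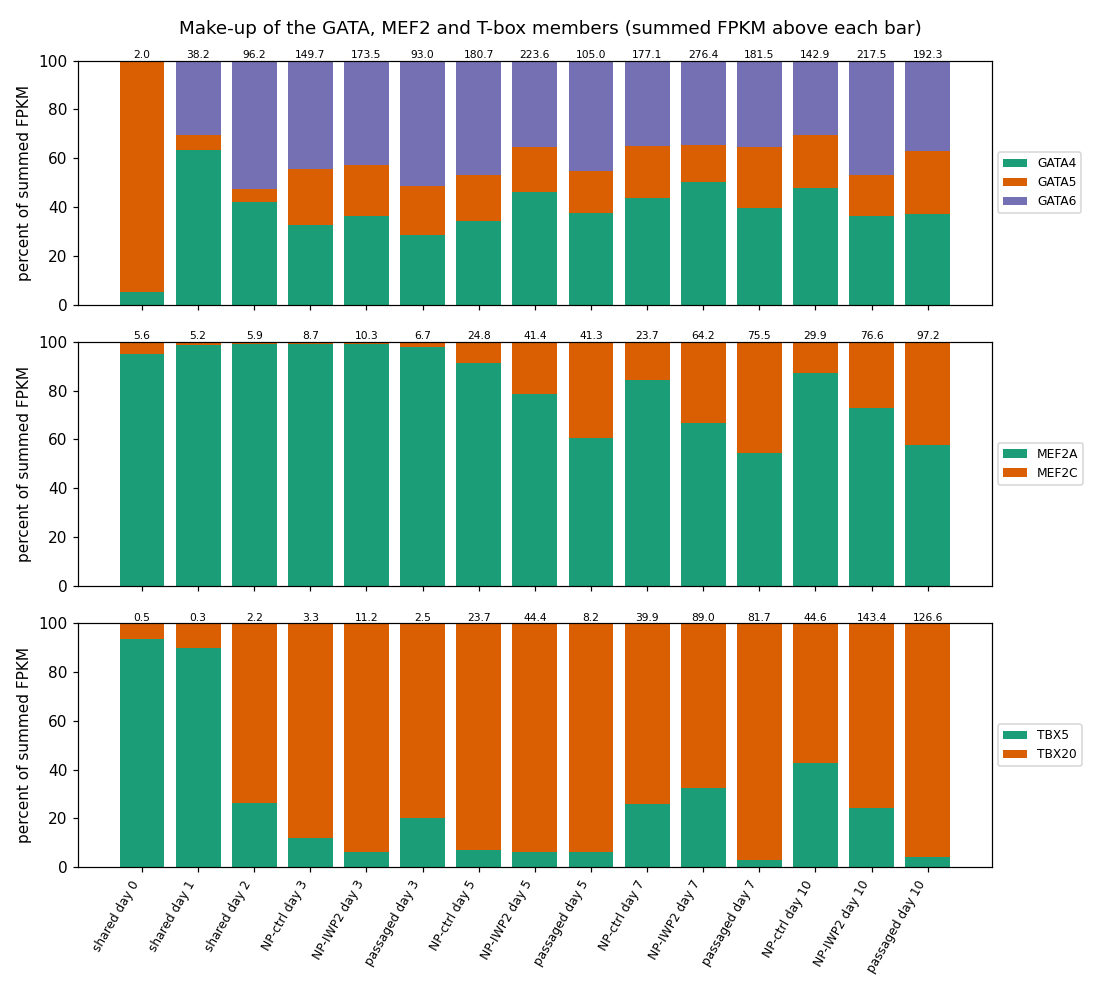
Share of the summed FPKM of the GATA, MEF2 and T-box members held by each gene, in percent, 1 bar a library in order of day, with the summed FPKM above each bar. From day 5 MEF2C takes its largest share in passaged libraries, where TBX5 holds 4.29% of the T-box sum on day 10, and GATA4 holds 28.8% to 50.2% of the GATA sum from day 3 on.

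Over the pooled libraries the GATA factors did not follow NKX2-5, although within the passaged series GATA5 had a Pearson's r of 0.885 to it. GATA4, which opens chromatin at cardiac and endodermal genes, had an FPKM on days 3, 5, 7 and 10 of 48.79, 62.25, 77.40 and 68.27 in NP-ctrl, 63.14, 103.11, 138.89 and 78.76 with IWP2 and 26.76, 39.62, 71.90 and 71.66 in passaged cells. NP-IWP2 was highest on every day and passaged lowest on days 3, 5 and 7, except that with median-of-ratios scaling passaged stood 0.02 above NP-ctrl on day 7 and 0.01 above NP-IWP2 on day 10 (log2). The passaged to NP-IWP2 ratio was lowest on day 5, at 0.384 (0.367 to 0.402), and 0.91 by day 10 (0.875 to 0.946). Its difference from NP-IWP2 was -0.84 (SE 0.24, edgeR adjusted p = 0.146) and was called by DESeq2 (adjusted p = 0.0253) and by edgeR without the filter on low values (adjusted p = 0.00713).

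GATA6, the other early member, had an FPKM of 66.63, 84.87, 62.26 and 43.49 in NP-ctrl, 74.33, 79.16, 95.42 and 101.65 with IWP2 and 47.58, 47.34, 64.00 and 71.51 in passaged cells on these days. Its highest NP-ctrl value was that of day 5, and NP-IWP2 was highest on days 7 and 10. GATA6-AS1, which overlaps it on the other strand, reached 2088 counts in NP-ctrl on day 5, when GATA6 had 5052.

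GATA5, the third GATA factor of the heart, lay at 34.31, 33.54, 37.41 and 31.16 in NP-ctrl, 36.06, 41.28, 42.14 and 37.09 with IWP2 and 18.63, 18.02, 45.60 and 49.16 in passaged cells. Passaged was lowest on days 3 and 5 and highest on days 7 and 10. Neither GATA6 nor GATA5 was called in any comparison of the arms over days 3 to 10. GATA4 held 28.8% to 50.2% of the summed FPKM of the GATA members over these libraries. The endoderm and hepatic list, of a lineage that also uses GATA4 and GATA6, summed to 4018 in NP-ctrl and 20.8 in passaged on day 10, when GATA4 was at 68.27 and 71.66, and its part in the GATA values was not tested.

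SRF (ENSG00000112658, chromosome 6, 43171269 to 43181506), which is expressed in most cells, was at 24.44, 23.75 and 24.98 on days 0, 1 and 2. Its FPKM on days 3, 5, 7 and 10 was 15.46, 23.65, 19.13 and 14.87 in NP-ctrl, 17.51, 29.17, 22.38 and 11.19 with IWP2 and 26.24, 30.62, 21.68 and 24.53 in passaged cells. Passaged was highest on days 3 and 10, beyond counting error, by 1.70-fold over NP-ctrl on day 3 (1.57 to 1.84) and by 2.19-fold over NP-IWP2 on day 10 (2.01 to 2.39). The difference from NP-ctrl was 0.58 (SE 0.20, edgeR adjusted p = 0.126), higher on 4 of 4 days and not called. The cofactor MYOCD thus ranged over 0.04 to 86.30 in libraries where SRF ranged over 11.19 to 30.62.

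Day by day, the number of factors that differed by at least 1 on log2(FPKM + 1) grew with time against NP-ctrl. These are pairs of single libraries and carry no p-value. Passaged against NP-ctrl differed in 0 of 10 on day 3 (8.49% of all genes did) and in 4 on day 5 (8.16%). It differed in 6 on day 7 (12.6%) and again in 6 on day 10 (17.4%). Those on day 5 were NKX2-5, MEF2C and MYOCD, higher, and TBX20, lower, and those on days 7 and 10 were NKX2-5, TBX20, MEF2A, MEF2C and MYOCD, higher, and TBX5, lower.

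NP-IWP2 against NP-ctrl differed in 1 on day 3 (4.15% of all genes) and in 2 on day 5 (2.97%), then in 6 on day 7 (7.26%) and also 6 on day 10 (9.35%), and all of these were higher in NP-IWP2. The first was TBX20 on day 3, 3.59-fold (2.80 to 4.63). Passaged against NP-IWP2 differed in 2 on day 3 (8.70%), both lower, then in 5 on day 5 (7.51%), of which 4 were lower, in 2 on day 7 (6.69%) and in 4 on day 10 (10.1%). The factors lower in passaged on day 5 were GATA4, GATA5, TBX5 and TBX20, and NKX2-5 alone was higher.

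**Figure D3:**
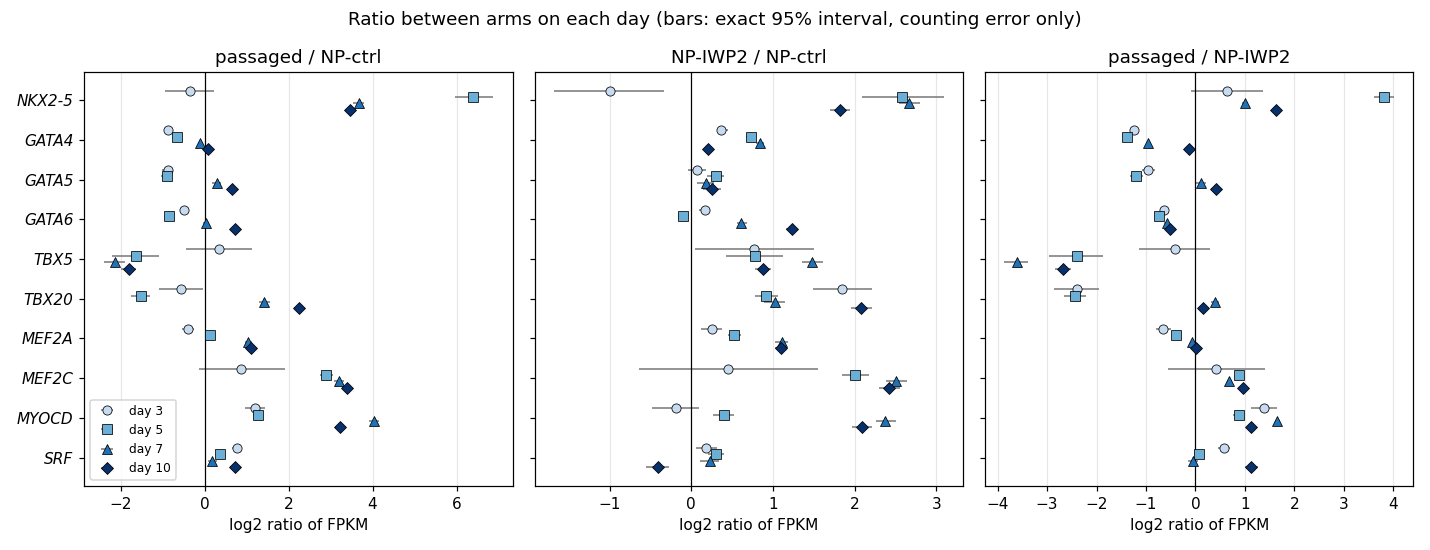
Ratio of FPKM between arms for each factor, on a log2 axis, with 1 symbol a day and bars for the exact 95% interval of counting error. On days 3 and 5 the GATA factors and TBX20 lie left of 0 in passaged against either other arm, and TBX5 does so from day 5 to day 10.

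Whether the passaged arm's differences moved from the early to the late days was asked with a period term, the arm effect on days 7 and 10 minus that on days 3 and 5, chosen after the day-by-day values were seen. Against NP-ctrl it was called in 4 of the 10, where 3.31% of all genes were called: TBX20 by 3.13 (SE 0.42, edgeR adjusted p = 0.00957), MYOCD by 2.62 (SE 0.35, edgeR adjusted p = 0.00957), GATA5 by 1.59 (SE 0.27, edgeR adjusted p = 0.0175) and MEF2A by 1.43 (SE 0.28, edgeR adjusted p = 0.0288). Against NP-IWP2 only TBX20 was called, by 2.84 (SE 0.41, edgeR adjusted p = 0.035), where 0.212% of all genes were. Between NP-IWP2 and NP-ctrl none of the 10 was called by edgeR, where 0.00472% of all genes were and 1881 had an unadjusted p under 0.05. MYOCD moved there by 2.18 (SE 0.35, edgeR adjusted p = 0.207) and MEF2A by 0.81 (SE 0.28, edgeR adjusted p = 0.488). Between passaged and NP-IWP2 their terms were 0.44 (SE 0.34, edgeR adjusted p = 0.722) and 0.62 (SE 0.28, edgeR adjusted p = 0.466). Neither shift was thus shown to be particular to the passaged arm. Between passaged and NP-ctrl NKX2-5 was not called, at 0.55 (SE 1.57, edgeR adjusted p = 0.932).

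The order of the arms separated the factors into those that ranked them as NKX2-5 did and those that did not. The order passaged over NP-IWP2 over NP-ctrl, with both intervals clear of 1, held on day 5 for NKX2-5, MEF2C and MYOCD. On days 7 and 10 it held for NKX2-5, GATA5, TBX20, MEF2C and MYOCD. On day 3 it held for SRF alone. Passaged was lowest, with both intervals clear of 1, for GATA4, GATA5, GATA6, TBX20 and MEF2A on day 3, for GATA4, GATA5, GATA6, TBX5 and TBX20 on day 5, for GATA4 and TBX5 on day 7 and for TBX5 on day 10.

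Likeness to NKX2-5 was described by Pearson's r of log2(FPKM + 1) over the 15 libraries, which share days and cultures and are not independent. MEF2C had r = 0.96, MYOCD 0.93, MEF2A 0.89 and TBX20 0.81, so that 4 of the 9 reached 0.8, a value reached by 6.24% of all other protein-coding genes. TBX5 had r = 0.64, GATA5 0.62, GATA4 0.50, GATA6 0.44 and SRF -0.12. TBX20 was at 0.72 over the 12 libraries of days 3 to 10. By rank (Spearman) over the 15 libraries MYOCD was at 0.925 and MEF2C at 0.9, and over the 12 libraries at 0.874 and 0.923.

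TBX5 moved with NKX2-5 inside the arms left in place. Within a single series of 7 libraries its r to NKX2-5 was 0.96 in NP-ctrl, 0.99 with IWP2 and 0.78 in passaged cells, and without the passaged libraries the pooled value was 0.97. In the same order of arms MEF2C was at 0.865, 0.966 and 0.993, MYOCD at 0.774, 0.976 and 0.97 and GATA5 at 0.731, 0.742 and 0.885. Among the factors compared, TBX5 thus had the highest r within each arm left in place. From day 3 to day 5 of the passaged arm TBX5 stood at a ratio of 1.04 (0.626 to 1.74), while that of NKX2-5 was 70.1 (52.1 to 96.6).

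**Figure D4:**
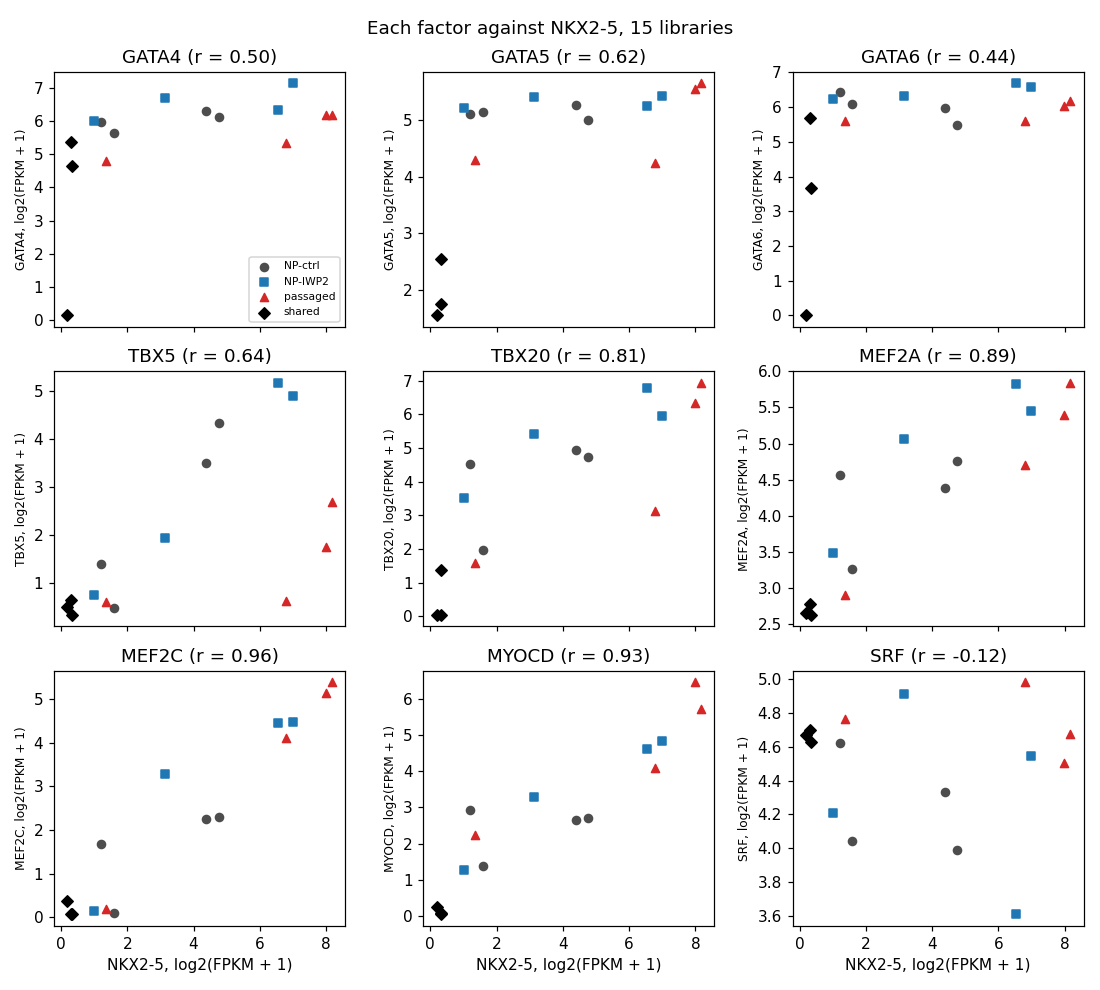
Level of each of the 9 other factors against NKX2-5, both as log2(FPKM + 1), 1 point a library, with r over the 15 libraries above each panel. MEF2C and MYOCD have the highest r over the pooled libraries. In NP-ctrl, however, MYOCD does not rise from day 5 to day 10 (2.94, 2.65 and 2.71) while NKX2-5 does (1.21, 4.38 and 4.76). The passaged libraries fall below the other arms for TBX5, and the GATA factors are already high where NKX2-5 is low.

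The protein-coding genes most like NKX2-5 over the 15 libraries were DGKI, a diacylglycerol kinase (r = 0.98), SMPX, a small muscle protein (0.98), MYH6, the alpha cardiac myosin heavy chain (0.98), ARPC5, a subunit of the actin-nucleating Arp2/3 complex (0.97), and SYNPO2L, a sarcomere protein (0.97). MEF2C ranked 13th among 13873 genes by this measure, MYOCD 55th and MEF2A 239th.

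Other regulators that act with these factors were mixed. Of 27 tested, 3 were called higher in passaged than in NP-ctrl and 3 lower, with a list median of 0.13 on log2. Over all 21206 genes 348 were called higher and 585 lower. This list and those below were chosen with earlier results of these data known. SMYD1, a muscle methyltransferase under MEF2C control, was higher by 3.18 (SE 0.48, edgeR adjusted p = 0.00551) and NKX2-6, a relative of NKX2-5, by 3.22 (SE 0.44, edgeR adjusted p = 0.00312), and MEIS1 by 0.64. HAND1, a basic helix-loop-helix factor of the early heart and extraembryonic mesoderm, fell by 2.76 (SE 0.36, edgeR adjusted p = 0.00249), TBX18 fell by 5.86 and GATA3 fell by 1.02. HAND1 was at 671.07, 570.38, 748.06 and 298.32 in NP-ctrl and at 103.17, 34.84, 98.43 and 77.15 in passaged on days 3, 5, 7 and 10. Against NP-IWP2 the calls were MEIS1, higher, and HAND1, TBX18 and GATA3, lower, and between NP-IWP2 and NP-ctrl there was none.

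Of 22 contractile and other genes known as targets of the factors, 7 were called higher in passaged than in NP-ctrl (CSRP3, LDB3, PLN, RYR2, SMPX, TNNC1 and TTN) and none lower, with a list median of 1.69. Over all genes tested, 4.40% were called in that comparison, in either direction. LDB3, a Z-disc protein, and SMPX were also called in the other comparisons, SMPX by 2.42 between NP-IWP2 and NP-ctrl (edgeR adjusted p = 0.0276) and by 1.51 between passaged and NP-IWP2 (edgeR adjusted p = 0.0233). SMPX was at 16.21, 80.69 and 178.29 in NP-ctrl, NP-IWP2 and passaged on day 10.

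Of 14 genes known to respond to SRF with the MRTF coactivators, 2 were called higher in passaged than in NP-ctrl, CCN2 by 2.12 (SE 0.35, edgeR adjusted p = 0.00835) and FHL1 by 1.71 (SE 0.40, edgeR adjusted p = 0.0359), with a list median of 0.58. The share called over all genes tested was 4.40%. CCN2, a matricellular protein, was at 29.29, 29.94 and 247.79 in NP-ctrl, NP-IWP2 and passaged on day 5, when SRF was at 23.65, 29.17 and 30.62. CCN2 was also called against NP-IWP2, by 1.97 (edgeR adjusted p = 0.0236).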

How the data were processed

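The authors trimmed reads with Cutadapt (1.9.1), aligned them with HISAT2 (2.0.1) to hg38 and made gene counts with HTSeq (0.6.1). The extraction notes name a long-read library kit beside these short-read tools, and the strand setting is not given in the sources used here. The 15 columns of deposited counts hold integers for 60605 genes. The deposited FPKM values are these counts scaled by gene length and library total, and recomputed values differed by at most 0.005. Of the identifiers, 60463 matched GENCODE release 44, and 93.7% of these had identical coordinates. The table lacked symbols for 20014 genes, and 19913 were named from an identifier table.

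Groups and days came from the sample labels. Genes whose FPKM was 1 or more in some library were kept. The arms were compared from day 3 to day 10 (12 libraries), blocking on day (edgeR 4.0.16 quasi-likelihood, TMM, R 4.3.3), with a Benjamini-Hochberg adjusted p under 0.05 taken as a call over 21206 genes. limma (3.58.1) and DESeq2 (1.42.0) were alternatives. The main edgeR fit, limma on FPKM and DESeq2 were tested on simulated data, for the passaged to NP-ctrl comparison only. The simulated arm difference was the same on every day, and the period term and the other alternatives were not tested in this way. Pairs of libraries were set side by side on log2(FPKM + 1), which makes changes of low genes look smaller, with Clopper-Pearson based 95% intervals. Genes named were the 10 members, the 5 protein-coding genes most like NKX2-5, and list genes that passed the test. Other genes with values, such as HNF4A and POU5F1, are defining markers. The members and lists were chosen with earlier results of these data known. The period term was chosen after seeing the data.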

Additional observations from a re-analysis of the deposited data

Results flagged for a closer look

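For 4 factors the passaged to NP-ctrl difference was not the same on days 7 and 10 as on days 3 and 5, by edgeR's test of the difference itself over the 12 libraries. The late minus early change was 3.13 for TBX20, 2.62 for MYOCD, 1.59 for GATA5 and 1.43 for MEF2A on the log2 scale. TBX20 also differed in this way between passaged and NP-IWP2, by 2.84. MYOCD and MEF2A were not called there, at 0.44 and 0.62, and between NP-IWP2 and NP-ctrl they moved by 2.18 and 0.81 without a call. Each period held 2 libraries an arm, the term was chosen after the values were seen, and it was fitted with all 12 libraries only.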

How the results depend on the processing

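Each of the 30 arm differences of the 10 factors was refitted under 11 alternatives. Of these 330 values 283 kept their direction and their side of the threshold, 15 lost a call, 26 gained one and 6 reversed, all 6 being differences that were not called. Between passaged and NP-ctrl, GATA5 turned to 0.19 without day 3 and 0.13 without day 5 (range -0.45 to 0.19 when 1 day was left out), and GATA6 to 0.04 and 0.12 (-0.43 to 0.12). Without day 5, SRF between NP-IWP2 and NP-ctrl turned to -0.009 (-0.009 to 0.21) and GATA5 between passaged and NP-IWP2 to 0.018 (-0.595 to 0.018). The number of factors called between passaged and NP-ctrl was 0 in limma on FPKM, 0 in limma on TPM, 0 with the 2 arms alone, 4 in DESeq2, 4 without the filter and 1 to 5 when 1 day was left out. Between NP-IWP2 and NP-ctrl it was 1 in DESeq2, 5 without the filter, 3 with the 2 arms alone and 0 to 1 when 1 day was left out. Between passaged and NP-IWP2 it was 0 in limma on FPKM or TPM, 3 in DESeq2, 5 without the filter and 0 to 3 when 1 day was left out. Over all genes the calls between passaged and NP-ctrl were 163 in limma, 108 in limma on TPM, 2150 in DESeq2, 2552 without the filter, 325 at a mean FPKM of at least 5, 109 with the 2 arms alone and 133 to 2373 when 1 day was left out, against 933. Between NP-IWP2 and NP-ctrl they were 0, 0, 59 and 367 for the first 4 of these, 277 with the 2 arms alone and 0 to 35 when 1 day was left out, against 4. Between passaged and NP-IWP2 they were 6, 6, 892 and 1360, then 74, 163 and 13 to 675, against 282. The cause of these moves was not tested. With a difference of at least 2, the factors changed on single days, summed over days, were 9, 5 and 4 in place of 16, 15 and 13. In NP-ctrl 8 factors preceded NKX2-5 at 50% of the highest FPKM and 7 at an FPKM of at least 5, with SRF, already high on day 0, in each count. On day 3 the NKX2-5 order by values alone held for 2 factors. By counts, where MEF2C's longer transcript adds reads, its median share of the MEF2 pair was 27.84%, against 18.56% by FPKM. By TPM, passaged cells differed from NP-ctrl over all genes by a median of 0.28, -0.22 and -0.38 on days 3, 7 and 10, against 0.03, -0.07 and -0.09 by FPKM. On TPM or median-of-ratios scaling 9 single-day differences of members changed sign, all at most 0.157 in size on log2(FPKM + 1). SRF had no onset day in any arm, nor MEF2C in NP-ctrl at a rise of 2 or an FPKM of 5. The arms were compared within days, and no paired analysis was possible over replicate numbers because each arm had 1 library a day. With 1 series of cultures, the spread between differentiations is unknown.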
